A study of Rattus norvegicus with 20 samples.

Results

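The transcripts described here encode the subunits of the mitochondrial respiratory chain and of the ATP synthase in rat adipose tissue. Members were taken by gene symbol: a probe set with 1 symbol in the platform annotation, beginning with Nduf, Uqcr, Atp5, or Cox followed by a digit from 4 to 8. Where a gene had several, the brightest on average was used. This gave 80 genes on 84 probe sets, of 10411 genes with 1 symbol and 15866 probe sets analysed. Complex I had 34 genes, complex III had 7, complex IV had 16 and complex V, the ATP synthase, had 15. The other 8 carry the same symbol stems but encode no subunit: 5 complex I assembly factors (Ndufaf3, Ndufaf4, Ndufaf5, Ndufaf7 and Ndufaf8), the supercomplex factor Cox7a2l, the ATP synthase inhibitor Atp5if1 and the pseudogene Cox6c-ps1. Ndufa4 and its relative Ndufa4l2 were placed in complex IV, where the Ndufa4 protein resides.

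Complex I takes electrons from NADH and hands them to coenzyme Q, complex III passes them on to cytochrome c, and complex IV, cytochrome c oxidase, delivers them to oxygen. The proton gradient built on the way drives complex V, in which a rotating stalk couples proton flow through the membrane part to ATP formation in the catalytic head. A few subunits of complexes I, III, IV and V are encoded by mitochondrial DNA, and the nuclear genes followed here encode the others. White adipocytes store triglyceride and hold few mitochondria compared with brown adipocytes, and their respiratory chain serves fatty acid oxidation and the energy needs of triglyceride turnover.

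Male Wistar rats entered the feeding period at 6 weeks of age. Control rats received the daily intake that had been recorded with free access to a purified diet, and calorie-restricted (CR) rats received 5%, 10%, 20% or 30% less, for 1 week or 1 month. All rats, controls included, were fasted for 16 h before tissue was taken. For each of the 10 groups the RNA of 5 rats went into one pool, which was measured on 2 one-colour Affymetrix chips, 20 chips in all. A group is thus 1 pool, no group has a spread of its own between animals, and a p-value measures the scatter of the 10 pools around the fitted line. The number of arrays limits the precision.

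Duplicate chips correlated at 0.971 to 0.982 over the 9520 probe sets bright enough to be tested. At 1 week the first and second chips were scaled apart before deposit (trimmed mean signals of 77.2 and 111), which moved single chips and left differences between pool means of one duration untouched. Markers of fat cells were high in all pools (11 of 14 adipocyte markers measured). Their mean log2 signals from control to 30% CR were 9.76, 10.07, 10.14, 10.15 and 10.23 at 1 week. At 1 month they were 9.89, 10.2, 10.45, 10.4 and 10.28, so every restricted pool lay above the control of its duration. The control and 30% CR pools of 1 week carried exocrine pancreas genes: 14 of 17 markers averaged 11.46 and 6.17 there, against 2.41 to 2.93 elsewhere. Lymphocyte markers (11 of 19 measured) averaged 7.26, 6.32, 5.43, 5.75 and 3.02 from control to 30% CR at 1 week and 7.22, 7.18, 3.19, 3.23 and 6.18 at 1 month. Their summed signals ran from 186.1 to 2325. Skeletal muscle markers (10 of 11 measured) averaged 3.58 to 4.32. In pooled tissue a smaller number of cells of one type and less RNA per cell cannot be told apart.

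The first comparison asked whether subunit transcripts changed step by step with restriction over both durations together. Of 75 tested members 14 were up-regulated and none was down-regulated with restriction, beside 5.71% of all 9520 tested probe sets that rose and 3.69% that fell (adjusted p under 0.05 by limma, with 7 residual degrees of freedom). The 14 were 7 of complex I, 2 of complex III, 1 of complex IV and 4 of complex V. At an unadjusted p under 0.05 the count was 40, all upward, beside 14.3% of probe sets that were upward. The slope was positive for 65 of all 80 members, and for 45.4% of all tested probe sets. Here and below, counts and medians over all 80 members, or over all 16 of complex IV, include genes too dim to be tested.

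The slopes were small in all complexes, and differences between complexes were not tested. The median over all members, in log2 signal per 10% of restriction, was 0.089 for complex I, 0.095 for complex III, 0.059 for complex IV and 0.067 for complex V. Over all tested probe sets it was -0.011, with quartiles of -0.085 and 0.061. The 8 genes that encode no subunit had a median of -0.014 and none of the 7 tested passed the test. Of 11 adipocyte markers 3 rose (Pnpla2, Cfd and Acvr1c) and none fell, with a median slope of 0.078. Leptin (Lep) had -0.21 ± 0.071 (adjusted p = 0.0796) and Plin1 0.001 ± 0.061. With the lymphocyte score as a covariate 1 member rose and the complex medians were 0.063, 0.066, 0.031 and 0.046. The count rested on single pools and was 1 without the 30% CR pool of 1 week, 2 without the control pool of 1 month, 3 without that of 1 week and 31 without the 10% CR pool of 1 month. The share of all tested probe sets called in these refits is not given. Without the 2 pools that carried pancreas genes, and so with 8 pools in the fit, no member passed (20 at an unadjusted p under 0.05) and the medians were 0.086, 0.095, 0.072 and 0.070.

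**Figure D1:**
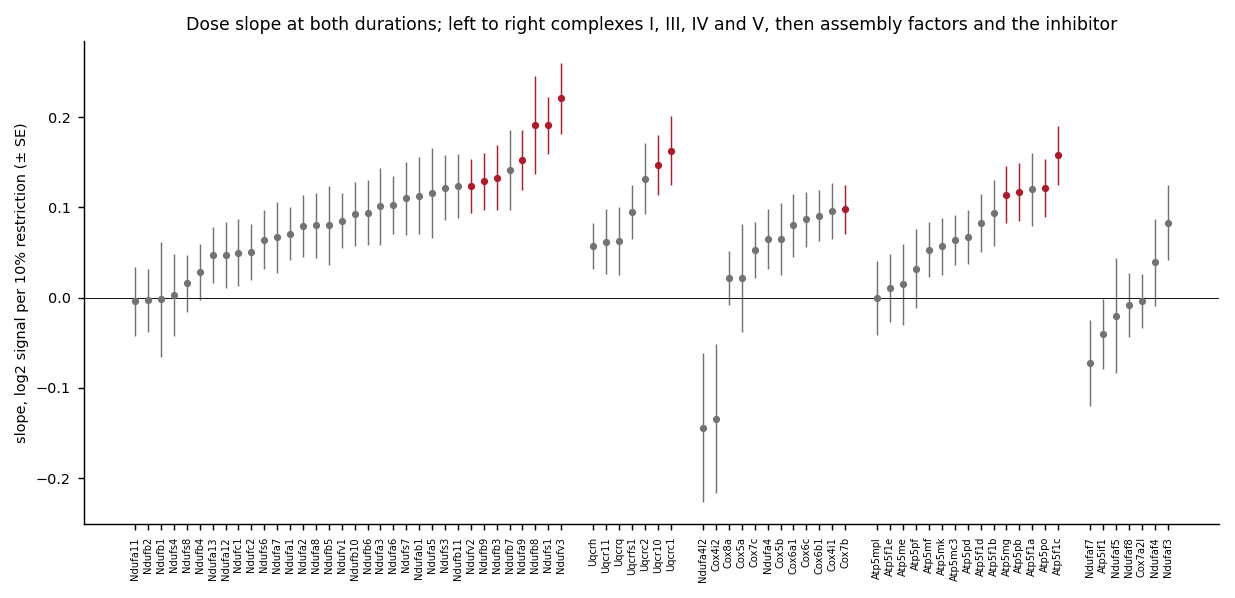
Slope of log2 MAS5 signal per 10% of food restriction for the 75 tested members (y axis), with standard errors as bars, fitted over 10 pools with duration as a term. Genes are ordered by slope within complexes I, III, IV and V and then the assembly factors and the inhibitor, and red points are the 14 genes with an adjusted p under 0.05, from Cox7b at 0.098 to Ndufv3 at 0.22; no gene with a negative slope passed the test.

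In complex I the lowest adjusted p-values were those of Ndufs1 and Ndufv3, both of the NADH-binding arm. Ndufs1 encodes the largest subunit, which carries iron-sulfur clusters. Its log2 signals from control to 30% CR were 8.55, 8.66, 8.91, 9.04 and 9.14 at 1 week. At 1 month they were 8.66, 8.89, 9.10, 9.16 and 9.26. Each step up in restriction therefore had a higher pool mean at both durations, and no restricted pool fell below the control of its duration. The slope over the 10 pools was 0.19 ± 0.031 (SE; limma, adjusted p = 0.00762), or 1.49-fold at 30%. Ndufs1 was the member that also rose with the lymphocyte score in the fit (0.16, adjusted p = 0.0445).

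Ndufv3, an accessory subunit of the same arm, had the highest slope of all subunits tested, 0.22 ± 0.039 (limma, adjusted p = 0.00971), or 1.58-fold at 30%. Its log2 signals were 8.38, 8.42, 8.55, 8.93 and 9.17 at 1 week. At 1 month they were 8.60, 8.61, 9.02, 9.03 and 9.04. The pools thus climbed step by step at 1 week, while at 1 month the 5% CR pool stood 0.001 above control and the 3 higher levels lay within 0.02 of each other. A second probe set of Ndufv3, with a mean signal of 95.6 beside 449, had a slope of 0.45.

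Ndufb8, an accessory subunit of the membrane arm, was lowest of the 10 pools under 5% and 10% CR at 1 week. Its log2 signals were 6.64, 6.54, 6.46, 7.22 and 7.17 at 1 week and 7.04, 7.28, 7.50, 7.62 and 7.46 at 1 month, and its slope was 0.19 ± 0.054 (adjusted p = 0.0496). Ndufa9, an accessory subunit near the coenzyme Q site, had a slope of 0.15 ± 0.033 (adjusted p = 0.0207), with the 5% CR pool of 1 week 0.106 below control and the other 7 restricted pools above it. Ndufb3, Ndufb9 and Ndufv2 rose by 0.13, 0.13 and 0.12 per 10%. Ndufv2 is the iron-sulfur subunit that partners the flavoprotein Ndufv1, whose own slope was 0.085 ± 0.031 (adjusted p = 0.095).

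All 6 core subunits of complex I among the members had positive slopes, from 0.016 for Ndufs8 to 0.19 for Ndufs1, and 2 passed the test. Among the 28 accessory subunits 25 slopes were positive and 5 passed. At the lower end stood Ndufa11, a membrane arm subunit, with -0.004 ± 0.038. Its pools were above control at all 4 levels of both durations, by 0.054 to 0.339 at 1 week and 0.033 to 0.222 at 1 month, but the highest 1 week value was that of 5% CR. A slope near zero can thus go with restricted pools that all lie above control.

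Complex III had positive slopes for 7 of 7 genes. Uqcrc1, which encodes core protein 1, had log2 signals of 9.62, 9.89, 9.87, 10.06 and 10.11 at 1 week and 9.72, 10.00, 10.32, 10.20 and 10.37 at 1 month. All 8 restricted pools lay above both control pools. The slope was 0.16 ± 0.038 (adjusted p = 0.0253), or 1.40-fold at 30%. Uqcr10, a small subunit, had a slope of 0.15 ± 0.033 (adjusted p = 0.023). Its log2 signals were 10.28, 10.34, 10.25, 10.64 and 10.72 at 1 week and 10.51, 10.45, 10.77, 10.86 and 10.82 at 1 month, so the 5% and 10% CR pools of 1 week and the 5% CR pool of 1 month lay within 0.07 of their control and the others above it. Uqcrc2, the other core protein, had 0.13 ± 0.039 (adjusted p = 0.0557), Uqcrfs1, the Rieske iron-sulfur protein, 0.095 ± 0.030 (adjusted p = 0.0687), and the hinge protein Uqcrh, with the lowest slope, 0.057 ± 0.026 (adjusted p = 0.16).

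Complex IV had 1 gene past the test. Cox7b, a small subunit, had log2 signals of 10.71, 10.72, 10.74, 10.87 and 10.92 at 1 week and 10.92, 10.98, 11.22, 11.21 and 11.28 at 1 month. The slope was 0.098 ± 0.027 (adjusted p = 0.0458), or 1.23-fold at 30%, so this was the smallest of the 14 called slopes. All 10 of the widely expressed subunits had positive slopes, up to that of Cox7b and with a median of 0.073. Cox5a, at 0.022 ± 0.060, is measured here by a weak probe set (mean signal of 45.9).

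The forms of complex IV subunits that are known from other tissues or conditions were dim on the chips. Of 6 such genes 2 were above the filter on low signals. Cox4i2, the form of subunit 4 of lung and low oxygen, had log2 signals of 5.09, 5.09, 5.03, 4.71 and 4.84 at 1 week and 5.09, 4.90, 4.05, 4.66 and 4.48 at 1 month. It was below control in 8 of 8 restricted pools, with a slope of -0.13 ± 0.082 (adjusted p = 0.296). Its widely expressed counterpart Cox4i1 had a slope of 0.096 ± 0.031 (adjusted p = 0.0697) and was above control in 8 of 8. Ndufa4l2, which responds to low oxygen, had -0.14 ± 0.083 (adjusted p = 0.264) beside 0.065 ± 0.033 for Ndufa4 (adjusted p = 0.207). The difference within these pairs was not tested.

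The muscle and brown fat forms lay under the filter. Mean signals were 11.9 for Cox7a1, 7.31 for Cox6a2 and 2.46 for Cox8b, and 17.6 for the testis form Cox6b2, all below the filter of 22.8, so their slopes of -0.247, -0.058, 0.218 and -0.008 carry no test. Single chips of Cox7a1 ranged from 3.1 to 23.5, and the 2 chips of the 20% CR pool at 1 week read 11.2 and 3.1. Values this low cannot be ordered between pools. Among their widely expressed counterparts Cox6a1, Cox6b1 and Cox8a had slopes of 0.080 ± 0.035, 0.091 ± 0.029 and 0.022 ± 0.030 (adjusted p = 0.152, 0.0684 and 0.66). The counterpart of Cox7a1, Cox7a2, shares its probe set with another symbol and is no member.

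Complex V had 4 genes past the test, 1 of the catalytic head and central stalk and 3 of the peripheral stalk and membrane part. Atp5f1c, the gamma subunit of the rotating stalk, had log2 signals of 10.42, 10.69, 10.66, 10.77 and 10.94 at 1 week and 10.65, 10.83, 11.12, 11.11 and 11.20 at 1 month. The slope was 0.16 ± 0.033 (adjusted p = 0.017), or 1.39-fold at 30%, and all 8 restricted pools exceeded the control of their duration. Atp5po and Atp5pb, both of the peripheral stalk, rose by 0.12 ± 0.032 and 0.12 ± 0.032 (adjusted p = 0.0382 and 0.0456). The log2 signals of Atp5po were 10.13, 10.24, 10.23, 10.49 and 10.62 at 1 week, and its 1 month pools had 10.51, 10.66, 10.85, 10.70 and 10.83. Atp5mg, the g subunit of the membrane part, rose by 0.11 ± 0.032 (adjusted p = 0.0461), with log2 signals of 10.44, 10.44, 10.66, 10.75 and 10.88 and then 10.78, 10.90, 11.11, 11.07 and 11.03.

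The catalytic subunits Atp5f1a and Atp5f1b had slopes of 0.12 ± 0.041 and 0.094 ± 0.037 (adjusted p = 0.0827 and 0.119). Atp5f1b had the highest mean signal of all members, 3368, and Cox8b the lowest. Atp5mc3, a gene of the rotating c ring, had 0.064 ± 0.027 (adjusted p = 0.142), and the lowest slope of the complex was that of the small subunit gene Atp5mpl, 0.000 ± 0.041, which has no direction. Atp5if1, whose product blocks ATP hydrolysis by the synthase, had log2 signals of 7.02, 6.87, 6.75, 7.0 and 6.93 at 1 week and 7.33, 7.27, 7.06, 7.18 and 7.02 at 1 month. It was below control in 8 of 8 pools, by 0.015 to 0.314, yet its slope of -0.040 ± 0.039 did not pass (adjusted p = 0.516). Its other probe sets had mean signals of 8.05 and 5.00 and are too dim to compare.

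**Figure D2:**
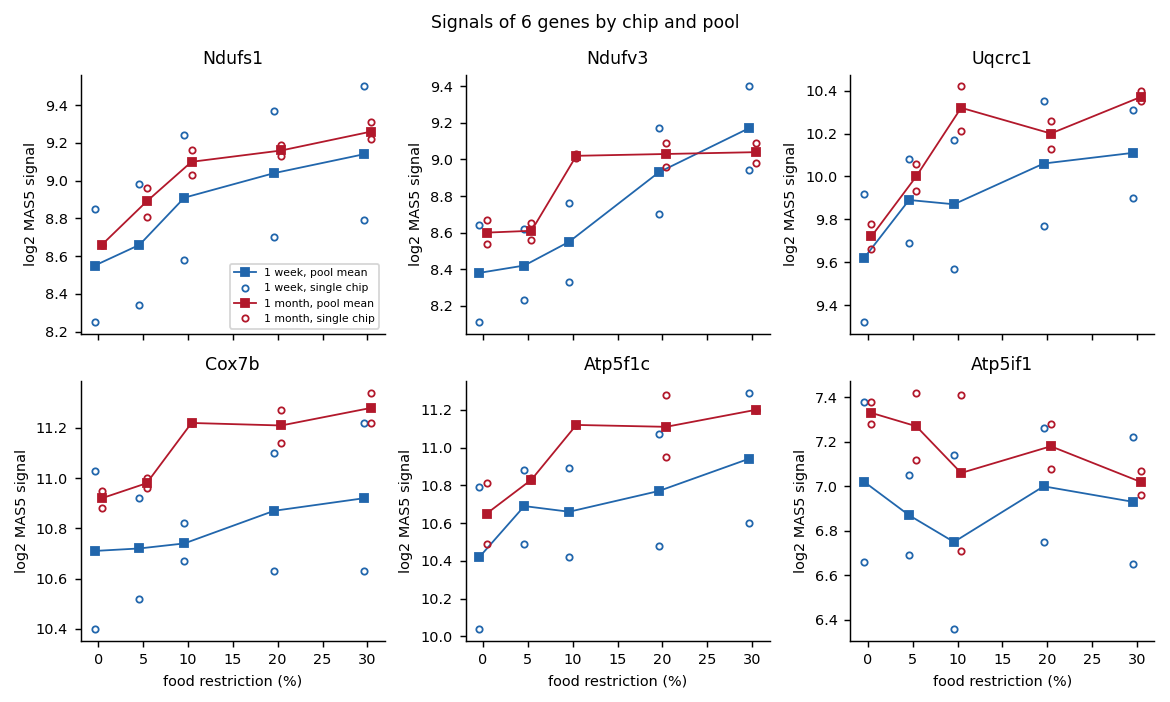
Log2 MAS5 signal (y axis) against food restriction in percent (x axis) for Ndufs1, Ndufv3, Uqcrc1, Cox7b, Atp5f1c and Atp5if1, with squares and lines for the pool means at 1 week (blue) and 1 month (red) and open circles for the 2 chips of each pool. Chips at 1 week lie far apart because their sets were scaled apart before deposit; the pool means go from 8.55 to 9.14 for Ndufs1 at 1 week and from 9.72 to 10.37 for Uqcrc1 at 1 month, while those of Atp5if1 lie below control in all restricted pools.

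Sequence before the start sites was read for the genes past the test, since many subunit genes are known to share binding motifs of nuclear respiratory factors. Promoters of 300 bases (250 before and 50 after the start) were matched by symbol for 72 members in the RefSeq table of build GRCr8. The motifs searched on both strands were GCGCANGCG for NRF1, CCGGAAG for ETS factors such as GABP, AAGGTCA for estrogen-related receptors (ERR) and AAGATGGC for YY1. They occurred in 25%, 26.4%, 13.9% and 22.2% of the 72 members, beside 6.21%, 9.21%, 4.37% and 3.41% of all 27457 promoters of that length and 7.98%, 11.2%, 3.74% and 3.88% of the 19005 of protein-coding genes. Of the 13 members past the slope test with a promoter, 38.5%, 15.4%, 7.69% and 30.8% held the NRF1, ETS, ERR and YY1 letters, beside 23.6%, 30.9%, 16.4% and 21.8% of 55 members tested and not called. The ETS and ERR letters were thus the less frequent in the called members, and no test was made. A match is a description of letters, and no binding was measured.

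The windows of 60 bases below show one such match in 5 genes past the slope test, with at least 1 gene from each of complexes I, III and V; capitals mark the motif on either strand. In build GRCr8 they lie at chr20:9613721-9613780 on the plus strand for Ndufv3, chr9:72073772-72073831 on the minus strand for Ndufs1, chr8:118468134-118468193 on the plus strand for Uqcrc1, chr11:44657509-44657568 on the minus strand for Atp5po and chr8:54130408-54130467 on the minus strand for Atp5mg. All lie before the start site. The capitals are NRF1 letters in Ndufv3, Uqcrc1 (2 matches) and Atp5po (2 overlapping matches), ETS letters in Ndufs1 and ERR letters in Atp5mg.
Ndufv3: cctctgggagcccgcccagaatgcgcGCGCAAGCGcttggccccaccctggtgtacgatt
Ndufs1: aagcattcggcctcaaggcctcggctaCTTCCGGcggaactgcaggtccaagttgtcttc
Uqcrc1: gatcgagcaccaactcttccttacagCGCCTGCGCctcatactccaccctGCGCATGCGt
Atp5po: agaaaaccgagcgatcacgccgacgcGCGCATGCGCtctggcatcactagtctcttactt
Atp5mg: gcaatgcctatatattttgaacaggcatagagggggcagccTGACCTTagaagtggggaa

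The NRF1 letters begin 39 bases before the start in Ndufv3, 63 and 39 before it in Uqcrc1 and 59 before it in Atp5po, the ERR letters 19 before it in Atp5mg and the ETS letters 199 before it in Ndufs1. The Atp5mg promoter also holds ETS and NRF1 letters, and those of Uqcrc1 and Atp5po hold YY1 letters at the start. No complex IV promoter of 13 held the NRF1 letters, beside 6 of 14 in complex V and 8 of 32 in complex I.

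The next comparison asked at which level of restriction the members left the control. Each level was set against the control over both durations, with 4 residual degrees of freedom. At 5% CR no member passed the test (2 upward at an unadjusted p under 0.05), where 0.252% of all tested probe sets rose (5.68% unadjusted). At 10% CR 3 of 75 tested members rose, a smaller share than the 5.07% of all tested probe sets that did. These were Uqcrc1 (0.42 ± 0.11, adjusted p = 0.0434), Ndufs1 (0.40 ± 0.091, adjusted p = 0.0329) and Atp5f1b (0.39 ± 0.090, adjusted p = 0.0342). At 20% CR 3 of 75 rose, again a smaller share than that of all tested probe sets, 6.33%. They were Ndufs1 (0.49 ± 0.091), Uqcrc1 (0.46 ± 0.11) and Atp5f1c (0.41 ± 0.10). At each of these 2 levels no member passed without the control pool of 1 week, without that of 1 month, or without the 20% CR pool of either duration, and at 10% none without the 10% CR pool of 1 month.

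At 30% CR 11 of 75 members rose and none fell, where 7.14% of all tested probe sets rose and 5.14% fell. Of these members 7 belonged to complex I, 2 to complex III and 2 to complex V. Ndufv3 had the largest difference, 0.61 ± 0.14 log2 (adjusted p = 0.0218), followed by Ndufs1 (0.60 ± 0.091, adjusted p = 0.00521), Uqcrc1 (0.57 ± 0.11, adjusted p = 0.0125) and Atp5f1c (0.54 ± 0.10, adjusted p = 0.0114). Both core proteins of complex III were among them, Uqcrc2 with 0.50 ± 0.12. The median difference over all members was 0.054, 0.155, 0.192 and 0.23 from 5% to 30%, and 0.001, -0.013, -0.028 and -0.035 over all tested probe sets. The number with a positive difference was 56, 64, 67 and 67 of 80. The count was 0 without the 30% CR pool of 1 week, 0 without the control pool of 1 month, 1 without that of 1 week and 6 without the 30% CR pool of 1 month. None of the 11 genes passed without the 2 pools that carried pancreas genes, one of them the 30% CR pool of 1 week, where the median over the tested members was 0.221 beside 0.236.

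Over all levels, the 8 restricted pools against the 2 control pools, 1 of 75 tested members rose, Uqcrc1, with 0.43 ± 0.11 (adjusted p = 0.0394). That was a smaller share than the 4.34% of all tested probe sets that rose. No member passed when any 1 of the pools other than those of 5% CR was left out, whereas 12 passed without the 5% CR pool of 1 month and 3 without that of 1 week. The share of all tested probe sets called in these refits is not given. With all pools in the fit, the count at an unadjusted p under 0.05 was 20, all upward, beside 15.0% of probe sets. The medians were 0.172, 0.232, 0.13 and 0.164 for complexes I, III, IV and V, and -0.026 for all tested probe sets. Of 11 adipocyte markers 5 rose in this comparison at an adjusted p under 0.05 by limma and none fell, with a median of 0.292. Of the 75 tested members 24 (32.0%) were above the control of their duration in all 8 restricted pools, where 15.1% of all tested probe sets were. These were 10 of 34 in complex I, 4 of 7 in complex III, 3 of 12 in complex IV and 7 of 15 in complex V. Below control in all 8 were 2 members, Cox4i2 and Atp5if1, beside 14.8% of probe sets. The pools of one duration share 1 control pool, so these counts are not 8 separate results.

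Single pools showed where the steps lay. A member was counted as higher where both chips differed upward from the same-numbered control chip and the pool means differed at least 1.2-fold, a count with no test. At 1 week 13, 9, 19 and 30 of the 75 tested members were higher from 5% to 30% CR, beside 20.7%, 25.1%, 22.2% and 24.8% of all tested probe sets. At 1 month 4, 44, 34 and 29 were higher, beside 12.9%, 20.5%, 20.5% and 18.4%. Members lower by the same rule numbered 4, 4, 4 and 2 at 1 week, where 16.2%, 20.2%, 23.5% and 27.0% of probe sets were lower, and 2, 1, 1 and 3 at 1 month, where 16.1%, 30.2%, 27.4% and 24.5% were. The shares of members higher under 5% CR at both durations and under 10% CR at 1 week were thus below the background. The share under 20% CR at 1 week was near it. Those under 30% CR at 1 week and from 10% CR at 1 month were above it.

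The pools are given here by duration; each value rests on 1 pool and its control, and no level was tested against the other duration. At 1 week the median difference from control over all 80 members was 0.033, 0.042, 0.151 and 0.212 from 5% to 30% CR, beside 0.030, 0.039, -0.009 and -0.011 over all tested probe sets. Taken over all members, the values at 5% and 10% CR were thus close to the background. The medians of complexes III and V lay above it, with 0.203 and 0.162 at 5% CR and 0.095 and 0.096 at 10% CR. Those of complexes I and IV lay at or below it. The 1 week control pool is the one that carried pancreas genes most strongly, with a summed signal of 59280 for the list. At 1 month the median over the members was 0.056, 0.289, 0.209 and 0.217, beside -0.017, -0.063, -0.039 and -0.050. The 10% CR pool of 1 month thus had the highest median of the 8 pools, and there 34 of 34 complex I genes, 7 of 7 complex III genes, 12 of 16 complex IV genes and 12 of 15 complex V genes were above control, beside 44.0% of all tested probe sets. The same pool and the 20% CR pool of 1 month had low lymphocyte scores (3.19 and 3.23 beside 7.22 in the control), as did the 30% CR pool of 1 week (3.02). The 30% CR pool of 1 month had a score of 6.18 and a median of 0.217. The mean of the adipocyte markers was also highest in the 10% CR pool of 1 month (10.45 beside 9.89 in its control). A link of that mean to the members was not tested. For complex I the medians were 0.015, 0.039, 0.148 and 0.237 at 1 week and 0.097, 0.342, 0.285 and 0.263 at 1 month. Complex III had 0.203, 0.095, 0.278 and 0.417 at 1 week and 0.175, 0.329, 0.33 and 0.309 at 1 month. The 12 tested genes of complex IV had -0.004, 0.021, 0.16 and 0.177, then 0.051, 0.282, 0.17 and 0.205. Complex V had 0.162, 0.096, 0.162 and 0.239, then 0.099, 0.264, 0.198 and 0.219. Complex III was thus highest in the 30% CR pool of 1 week, the others in the 10% CR pool of 1 month. Differences between complexes were not tested.

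**Figure D3:**
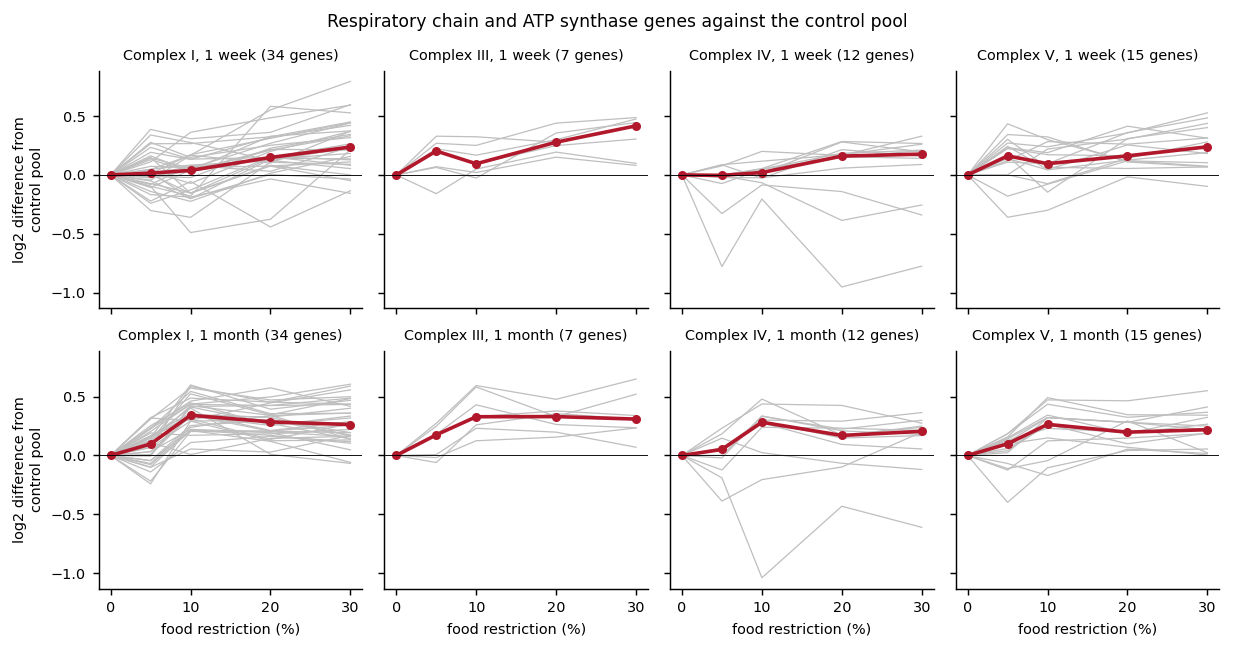
Log2 difference of each pool from the control pool of its duration (y axis) against food restriction in percent (x axis), for the tested genes of complexes I, III, IV and V (columns) at 1 week (top) and 1 month (bottom); grey lines are genes and the red line is their median. The complex I median stands at 0.148 at 20% CR in the 1 week pools and stands at 0.342 at 10% CR in the 1 month pools; the lowest lines of complex IV are Ndufa4l2 at 1 week and Cox4i2 at 1 month.

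Fitted separately, the slope at 1 week passed for no member (19 at an unadjusted p under 0.05), beside 0.221% of all tested probe sets that rose (10.5% unadjusted), and the slope at 1 month for no member (15 unadjusted), beside 0.0945% (6.69% unadjusted). Slopes were positive for 63 and 69 of 80 members. The medians for complexes I, III, IV and V were 0.085, 0.094, 0.072 and 0.065 at 1 week and 0.084, 0.104, 0.053 and 0.079 at 1 month. Ndufv3 had 0.28 ± 0.051 at 1 week (adjusted p = 0.0528) and 0.16 ± 0.051 at 1 month (adjusted p = 0.25), and Ndufs1 had 0.20 ± 0.047 and 0.18 ± 0.047 (adjusted p = 0.096 and 0.16). The difference of the 2 slopes passed for no member by limma, with 0 at an unadjusted p under 0.05 too, and for 0% of all tested probe sets (2.96% unadjusted).

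The last comparison set the 5 pools of 1 month against the 5 of 1 week, after the chips were scaled to one trimmed mean. No member passed the test, beside 0.798% of all tested probe sets that were higher at 1 month. At an unadjusted p under 0.05, 43 members were higher and 1 lower, where 8.37% and 10.6% of probe sets were. The difference was positive for 73 of 80 members, with a median of 0.188 beside -0.008 for all tested probe sets. This was shared by the complexes, with medians over tested members of 0.200, 0.182, 0.131 and 0.209, and by the assembly factors and the inhibitor, with 0.189. Ndufb8 stood highest of the tested members at 0.498 and Cox4i2 lowest at -0.394. The rats of the 1 month pools were older as well as longer on their diet, so age and duration cannot be told apart, and the control pools are part of this contrast. Since the chip sets were scaled apart before deposit, the count depends on the scale: with the signals as deposited 25 members were higher. That scale acts on all probe sets, so the latter count is not read as a result about the members.

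**Figure D4:**
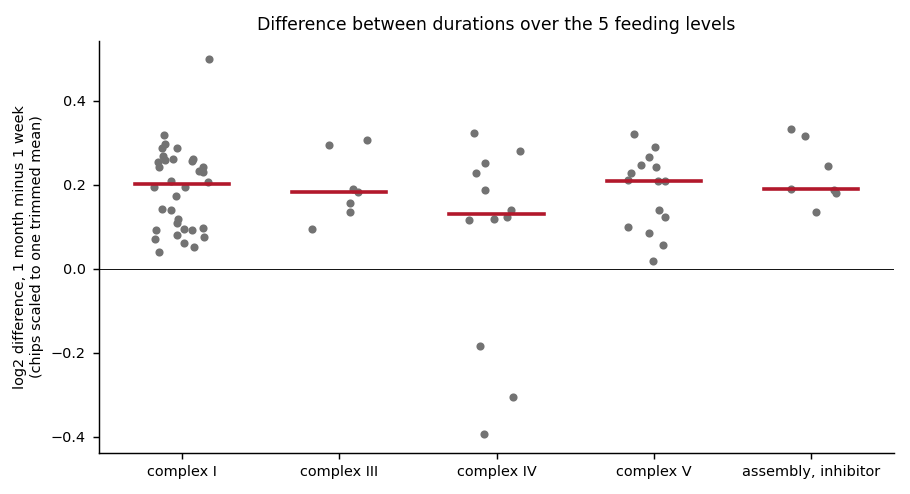
Log2 difference between the 5 pools of 1 month and the 5 pools of 1 week (y axis), after scaling of the chips to one trimmed mean, for the 75 tested members by complex; each point is a gene and the red line is the median of the group. All 34 genes of complex I, 7 of complex III and 15 of complex V lie above 0, and the points below 0 are 3 genes of complex IV, the lowest being Cox4i2 at -0.394.

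Other genes of the pathway were counted in lists outside the symbol rule, beside the 5.71% of all tested probe sets that rose. In complex II, succinate dehydrogenase, 2 of 4 tested genes rose with restriction, Sdha (0.17 ± 0.039) and Sdhb (0.17 ± 0.039), and the median of the list was 0.138. Of 4 electron carriers Etfb (0.25 ± 0.048) and Etfdh (0.21 ± 0.056) rose, which pass electrons from fatty acid oxidation to coenzyme Q, and Cyc1 of complex III had 0.12 ± 0.036. In coenzyme Q synthesis 4 of 11 rose, led by Coq8a (0.68 ± 0.11), a kinase-like protein of that pathway, and Coq10a (0.27 ± 0.069). The slope of Coq8a was thus larger than that of any tested subunit. Of 6 nucleotide carriers and channels Vdac1, an outer membrane channel, rose (0.15 ± 0.041), of 28 assembly factors Surf1, which acts on complex IV (0.22 ± 0.056), a share no higher than that of all probe sets, and of 14 mitochondrial mass and import markers 4, with Clpp (0.13 ± 0.032) and Hspa9 (0.12 ± 0.031) the steepest. None of the genes in these lists fell.

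None of the 4 tested regulators of mitochondrial genes passed, and the median of the 7 measured was -0.037. Gabpb1, a subunit of the ETS factor GABP, came nearest (-0.13 ± 0.039, adjusted p = 0.0568), followed by Tfam (0.049 ± 0.037), Polrmt (-0.037 ± 0.064) and Esrra (0.029 ± 0.082). Ppargc1a, a coactivator of mitochondrial biogenesis, lay under the filter with a mean signal of 1.67. Among uncoupling proteins neither Ucp2 (-0.14 ± 0.051) nor Ucp3 (-0.17 ± 0.099) passed the test, and Ucp1, the uncoupler of brown fat, lay under the filter (10.5). Of the brown and beige fat markers, a list that also holds the members Cox7a1 and Cox8b, 1 of 7 measured was above the filter, Cidea, which rose by 0.30 ± 0.045 per 10% (adjusted p = 0.00553).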

How the data were processed

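Adipose tissue RNA of male Wistar rats (visceral fat, per the study's methods), pooled from 5 rats per group, was measured on 20 chips. The authors deposited MAS5 signals, an intensity on a linear scale; MAS5 is named in the submitters' processing notes, and a version is not given there. Trimmed means (trim 0.02) showed that chip sets were scaled apart before deposit (77.2 and 111 at 1 week, about 97.7 and 97.5 at 1 month).

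Of 15923 probe sets 57 array controls were left out. The platform table gave 12783 probe sets 1 symbol, 312 several and 2771 none, and 12748 symbols were matched to the RefSeq gene table. Signals under 1 were set to 1, log2 was taken, and the 2 chips of a pool were averaged, since they are technical repeats. Tests covered the 9520 probe sets whose mean log2 signal reached the 40th percentile (22.8 on the linear scale), with 75 of the 80 members. limma 3.58.1 in R 4.3.3 (lmFit, eBayes with trend, two-sided, Benjamini-Hochberg over all 9520, threshold 0.05) was fitted over the 10 pools for the slope per 10% restriction, the levels, restricted against control and duration. Chips were rescaled to one trimmed mean only for the comparison of durations. Every adjusted p given for a gene is limma's. Scripts were tested on simulated data.

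Members and lists were chosen with earlier results of these data known, and promoter motifs and windows after the slopes were known. Genes were named by rule: per complex the 4 called members of largest slope and those of highest and lowest slope, up to 4 of largest effect in each other comparison, members of highest and lowest signal, isoform pairs, and up to 2 called genes per pathway list; genes beyond this rule were chosen after their values were seen. Alternatives covered scaling, floor, filter, trend, replicate block, single chips and pools, pools carrying pancreas genes and a lymphocyte covariate. Figures were drawn with matplotlib 3.10.9.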

Additional observations from a re-analysis of the deposited data

Results flagged for a closer look

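Atp5f1e, the epsilon subunit of the ATP synthase stalk, and Ndufs8, a core subunit of complex I, lay on opposite sides of control at the 2 durations. Some of these pools were close to their control. How many of all tested probe sets had this pattern of signs was not counted. Atp5f1e was below control in all 4 restricted pools of 1 week (-0.359 to -0.016 log2) and above it in all 4 of 1 month (0.003 to 0.149). The difference of its slopes was -0.047 per 10% (adjusted p = 0.999 by limma). Ndufs8 was below control at 1 week by -0.188 to -0.034 and above it at 1 month by 0.008 to 0.163, with a difference of slopes of 0.067 (adjusted p = 0.999). The test of the slopes did not pass for either gene, and the shift of all levels at one duration against the other was not tested. The 4 pools of a duration share 1 control pool.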

How the results depend on the processing

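No member was down-regulated under any alternative in the fit at both durations, but the number called rested on single pools. It was 14, and 1 to 31 when 1 pool or 1 set of chips was left out: 3 without the control pool of 1 week and 2 without that of 1 month, 7, 9, 4 and 1 without 5%, 10%, 20% and 30% CR of 1 week, 7, 31, 6 and 14 without those of 1 month, 6 without the first chips and 9 without the second. It was 8 with each chip centred on its median, 6 without the intensity trend, 7 without a filter, 7 with quantile normalization, 0 without the 2 pools carrying pancreas genes, 1 with the lymphocyte covariate and 6 with the 7 pools of a lymphocyte score over 5, a choice made after seeing the data. At 1 week the replicate number marked a set of chips with its own scale. Beyond such an offset, chips of one replicate number deviated together little between pools (correlations of -0.13 to 0.22). A fit with the replicate block and the pool as a random block gave 27. The 60th percentile as filter gave 17 of 72 tested members and a floor of 16 gave 15. The shares of all tested probe sets given above belong to the fits as reported. No such share is set beside the counts of refits here and below. A change in these counts is thus not read as one particular to the members.

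For 5% CR and the difference of slopes the count as reported was 0, and no alternative moved it. In the order median centring, no trend, no filter, 60th percentile, quantile normalization, without pancreas pools, lymphocyte covariate, high lymphocyte pools and replicate block, the members called were 1, 0, 1, 5, 5, 0, 0, 0 and 11 at 10% CR (3 as reported). They were 5, 6 and 20 with the 60th percentile, quantile normalization and the replicate block at 20% CR (3 as reported) and 0 with no trend, the lymphocyte covariate, high lymphocyte pools and without pancreas pools. At 30% CR (11 as reported) they were 7, 3, 6, 17, 0, 1, 0 and 26 in the first order without quantile normalization. For restricted against control (1 as reported) they were 0, 0, 0, 3, 4, 0, 0, 0 and 13. Leaving out a pool or chip set gave 0 to 8, 0 to 10, 0 to 16 and 0 to 12. The slope at 1 week was called for 1 member with the 60th percentile, 1 with quantile normalization, 5 with the replicate block and 0 to 3 with a pool left out, and that at 1 month for 5 with the block and 0 to 0. The difference between durations was called for 6, 5, 1, 32 and 25 members with the 60th percentile, the lymphocyte covariate, quantile normalization, the block and signals as deposited, and 0 to 2 with a pool left out. With a fold of 1.5 in place of 1.2 the members higher in a pool were 0, 0, 0 and 3 at 1 week and 0, 3, 0 and 3 at 1 month. Beside them stood 4.61%, 7.27%, 7.1% and 9.38% of all tested probe sets at 1 week. At 1 month the shares were 2.49%, 6.31%, 6.31% and 5.44%. At this fold the share of tested members was thus below the background in every pool.

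The median slopes of complexes I, III, IV and V were 0.135, 0.141, 0.105 and 0.112 with median centring, 0.063, 0.066, 0.031 and 0.046 with the lymphocyte covariate and 0.066, 0.062, 0.036 and 0.052 with quantile normalization, and with a pool left out 0.079 to 0.103, 0.075 to 0.113, 0.047 to 0.087 and 0.060 to 0.081. At 30% CR median centring moved the median of all tested probe sets from -0.035 to 0.097, and that of the tested members from 0.236 to 0.368. Of 526 refits of 24 named slopes 111 lost their call, 8 gained one and 10 changed sign, all of uncalled genes. These were Atp5if1 (0.006 with median centring, -0.085 to 0.005 with a pool or chip set left out), Cox8a (-0.013 with the lymphocyte covariate, -0.005 to 0.049 likewise) and Ndufa11 (0.041 with median centring, 0.015 with high lymphocyte pools, -0.032 to 0.021 likewise). The causes were not tested.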

Other observations

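The 7 probe sets that carry the symbol of a subunit and also of a paralog or pseudogene were outside the membership rule, because their signal cannot be given to 1 gene. Cox7a2, a complex IV subunit, shares its probe set with Cox7a2l2 and had a slope of 0.10 ± 0.028 per 10% restriction (adjusted p = 0.0414 by limma). Ndufa10 of complex I, with Ndufa10l1, had 0.14 ± 0.034 (adjusted p = 0.0277). Cox5a, with an unnamed locus, had 0.10 ± 0.046 (adjusted p = 0.161) at a mean signal of 1869, far brighter than the probe set that stood for Cox5a above. Uqcrb had 0.078 ± 0.030 (adjusted p = 0.109). The c ring genes Atp5mc1 and Atp5mc2 had -0.025 ± 0.029 and 0.035 ± 0.051, and Ndufs5 had -0.002 ± 0.028, none of which passed the test.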
